A study of Mus musculus with 14 samples.

Results

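H3K27me3 is the trimethylated form of lysine 27 of histone H3, and the regions described here are the peaks of this mark that were higher in mouse embryonic stem cells (mESCs) lacking the Hoxa cluster than in mESCs lacking Wnt6 or Hmx1, on chromosomes other than that of the Hoxa cluster. Peaks were chosen by these measured levels: one was taken as gained when its mean raw count over 7 libraries was at least 20 and its mean level in the 3 Hoxa deletion libraries was at least 75% above that in the 4 other libraries. Levels are given as CPM, the count in a peak per 1000000 counts of its library over all peaks, and the ratio of a peak is its mean CPM in the Hoxa deletion divided by that in the other 4 libraries. Chromosomes 6 and 8 and the sex chromosomes were left out by the rule. Of 74458 peaks in all, 61796 were eligible by chromosome and count, and 1318 were gained. Since the measured difference between the Hoxa deletion and the other deletions chose these peaks, that difference is described and not tested.

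The libraries were made by Cut&Tag, in which an antibody directs the transposase Tn5 to chromatin carrying the mark, and the cells were G4 mESCs of a 129/Sv × C57BL/6 F1 background, grown with LIF on CD1 feeder cells. All carried a homozygous CRISPR-Cas9 deletion of an anchor of Polycomb-associated loops, at the Hoxa cluster (3 libraries), Wnt6 (2 libraries) or Hmx1 (2 libraries), and no unedited library was in the table, so that a gain in the Hoxa deletion cannot be told apart from a loss in both other deletions. Each deletion line was derived from selected clones, and the labels name no clone, so that a difference between deletions and a difference between clones cannot be told apart. The study asked whether the loss of an anchor altered H3K27me3 at other places, mainly on the same chromosome.

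Polycomb repressive complex 2 (PRC2), with EZH2 or EZH1 as its catalytic subunit, places H3K27me3 at genes that are kept silent, among them many regulators of development in mESCs. The complex is recruited at CpG islands, stretches rich in the dinucleotide CG that often cover promoters, and the mark can spread from there over neighbouring chromatin. Pluripotency genes, which are active in mESCs, carry little of it.

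The place of the missing sequence went with the labels. In each deletion it was taken as the longest run of peaks under 10% of the level in the others. A low level over it was thus set by the search, and only its place bears on the labels. In the Hoxa deletion this run held 46 peaks at chr6:52163046-52274461, on the chromosome of the Hoxa cluster. In the Wnt6 and Hmx1 deletions it lay at those genes. Over the stretches that were missing, the Wnt6 deletion libraries held 0.540% and 0.533%, and the Hmx1 deletion libraries 0.325% and 0.202%, of the mean level of the other deletions. Library totals lay between 6016500 counts in Hmx1 deletion replicate 1 and 36563541 counts in Wnt6 deletion replicate 2. Of 14 pluripotency genes, 6 overlapped no peak, as did 6 of 182 homeobox genes and 3 of 10 fibroblast genes, which would mark feeder cells. Peaks at the other pluripotency genes had a median of 8.56 CPM per kb of width, against 44.9 CPM per kb at homeobox and 24.1 CPM per kb at fibroblast genes. Without regard to width, the median of eligible peaks was 4.04 CPM at pluripotency genes and 3.97 CPM over all. The pluripotency peaks were thus weaker than those of the other 2 lists, but not than a typical eligible peak.

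Of the 1318 gained peaks, 41 owed their place to the deletions of the comparison libraries. The stretch missing from the Wnt6 deletion, chr1:74768523-74901291, held 31 of them among its 34 peaks, and that missing from the Hmx1 deletion, chr5:35382872-35401827, held 10 among its 11 peaks. At the peak chr1:74782021-74784667 in Wnt6, which encodes a secreted ligand, the level was 199 ± 10.9 CPM with Hoxa deleted (SD, n = 3), 190 ± 7.31 CPM with Hmx1 deleted (SD, n = 2) and 0.889 ± 0.407 CPM with Wnt6 deleted (SD, n = 2). At chr5:35388439-35389530 in Hmx1, which encodes a homeobox transcription factor, it was 138 ± 9.33 CPM with Hoxa deleted (SD, n = 3), 125 ± 11.7 CPM with Wnt6 deleted (SD, n = 2) and 0.399 ± 0.0939 CPM with Hmx1 deleted (SD, n = 2). Here the Hoxa deletion resembled the deletion that retained the sequence. These 41 peaks are kept apart from what follows, which concerns the 1277 gained peaks outside both stretches, 2.07% of 61751 eligible peaks. None of the 1277 lay within 100 kb of a stretch.

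Gained peaks reached into promoters at 151 of 1277 peaks (11.8%), against 15.8% of eligible peaks, where a promoter spans 250 bases before to 50 after a start in the RefSeq table of assembly GRCm38.p6. The promoters in gained peaks numbered 179, and 77 had their 250 upstream bases wholly within the peak. Of these, the upstream bases of 4 genes are shown as examples rich in CG, not as typical gained promoters, and they were chosen after their values were known. They belong to Sox13, a transcription factor and, among the protein-coding genes of these 77 promoters, the one with the highest peak level; to Camkk2, a kinase that activates AMPK and whose promoter peak had a high ratio; to Gli2, a transcription factor of Hedgehog signalling; and to Fgf4, a growth factor made by mESCs. The sequences run 5′ to 3′ on the strand of the gene in GRCm38.p6, at chr1:133424213-133424462 (minus strand) for Sox13, chr5:122779411-122779660 (minus) for Camkk2, chr1:119053620-119053869 (minus) for Gli2 and chr7:144861136-144861385 (plus) for Fgf4, with each CG in capitals.
Sox13: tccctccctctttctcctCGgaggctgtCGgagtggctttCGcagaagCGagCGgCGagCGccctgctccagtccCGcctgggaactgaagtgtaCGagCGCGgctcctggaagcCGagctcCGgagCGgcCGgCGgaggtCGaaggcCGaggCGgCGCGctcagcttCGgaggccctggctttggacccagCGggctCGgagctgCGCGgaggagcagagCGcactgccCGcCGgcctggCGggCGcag
Camkk2: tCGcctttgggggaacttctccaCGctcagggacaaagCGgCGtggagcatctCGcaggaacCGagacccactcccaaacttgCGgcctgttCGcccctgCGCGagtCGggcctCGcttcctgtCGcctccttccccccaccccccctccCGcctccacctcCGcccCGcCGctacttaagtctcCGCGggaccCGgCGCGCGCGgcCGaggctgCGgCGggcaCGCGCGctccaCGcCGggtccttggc
Gli2: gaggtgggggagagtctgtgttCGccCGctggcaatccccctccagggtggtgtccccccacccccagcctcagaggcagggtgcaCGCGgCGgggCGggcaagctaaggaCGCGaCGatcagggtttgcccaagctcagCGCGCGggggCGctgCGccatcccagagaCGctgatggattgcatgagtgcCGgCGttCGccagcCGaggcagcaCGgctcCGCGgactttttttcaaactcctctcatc
Fgf4: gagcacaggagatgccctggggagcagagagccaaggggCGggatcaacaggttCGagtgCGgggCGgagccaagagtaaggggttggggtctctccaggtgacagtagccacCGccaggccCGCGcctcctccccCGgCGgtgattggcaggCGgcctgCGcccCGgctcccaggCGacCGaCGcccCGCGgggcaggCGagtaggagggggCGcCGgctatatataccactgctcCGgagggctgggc

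These windows held 31, 32, 22 and 21 CG dinucleotides, which read the same on both strands. The median was 12 over promoters in gained peaks, 16 over promoters in eligible peaks and 6 over all 32851 promoters of the table, of which 92.1% held at least one CG in these 250 bases. All 4 windows shown thus lay above the medians of gained and of eligible promoters. The gained promoters of Rusc2 and H2ac6, not shown, held 6 CG each. By these medians, gained promoters were richer in CG than promoters of the table and poorer than promoters in eligible peaks. Over the whole promoter, the share with 10 or more CG was nearly equal, 81.6% in gained and 81.3% in eligible peaks. The comparison was not matched for peak level, and gained peaks were mostly weak. These counts describe sequence only, and no factor binding was measured.

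The promoter peak of Camkk2 (chr5:122778182-122779736) had 32.3 CPM in the Hoxa deletion, 11.5 CPM in the Wnt6 deletion and 8.87 CPM in the Hmx1 deletion, a ratio of 3.18. That of Gli2 (chr1:119053386-119054017) had 13.2 CPM in the Hoxa deletion at a ratio of 2.07, and that of Fgf4 (chr7:144860968-144861721) had 8.66 CPM in the Hoxa deletion, 5.02 CPM in the Wnt6 deletion and 4.51 CPM in the Hmx1 deletion. At Camkk2 and Fgf4 both comparison deletions lay nearer to each other than either did to the Hoxa deletion, a gap that the rule largely set.

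The gained peaks were mostly weak. Their median level was 3.47, 3.24 and 3.38 CPM in Hoxa deletion replicates 1 to 3, 1.60 and 2.02 CPM in Wnt6 deletion replicates 1 and 2, and 1.33 and 1.71 CPM in Hmx1 deletion replicates 1 and 2. Over all eligible peaks the same median lay between 3.80 and 4.18 CPM in every library, so that gained peaks were slightly below the typical eligible peak in the Hoxa deletion and well below it in the others. By group, the medians were 3.36 CPM in the Hoxa deletion, 1.81 CPM in the Wnt6 deletion and 1.52 CPM in the Hmx1 deletion. The ratio of the Hoxa deletion to the others had a median of 1.93 and reached 4.98. It was over 2 at 493 peaks and over 3 at 29.

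In the Hoxa deletion, 895 gained peaks (70.1%) had under 5 CPM, 172 had at least 10 CPM and 45 at least 30 CPM. The median count of a gained peak was 8 in Hmx1 deletion replicate 1 and 74 in Wnt6 deletion replicate 2, so that a single weak peak was measured with little precision. The share of eligible peaks that were gained was 4.42% in the lowest decile of mean level and 0.275% in the highest. The 3 Hoxa deletion libraries all lay above the 4 others at 1012 of 1277 gained peaks (79.2%), where 10.2% of eligible peaks showed this; as the rule used the same contrast, nothing is read from that excess. The share was 53.8% of the gained peaks in the lowest decile of level and 100% in the highest. Among all eligible peaks of these deciles it was 4.08% and 13.9%, so it was also higher at the higher level there.

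**Figure D1:**
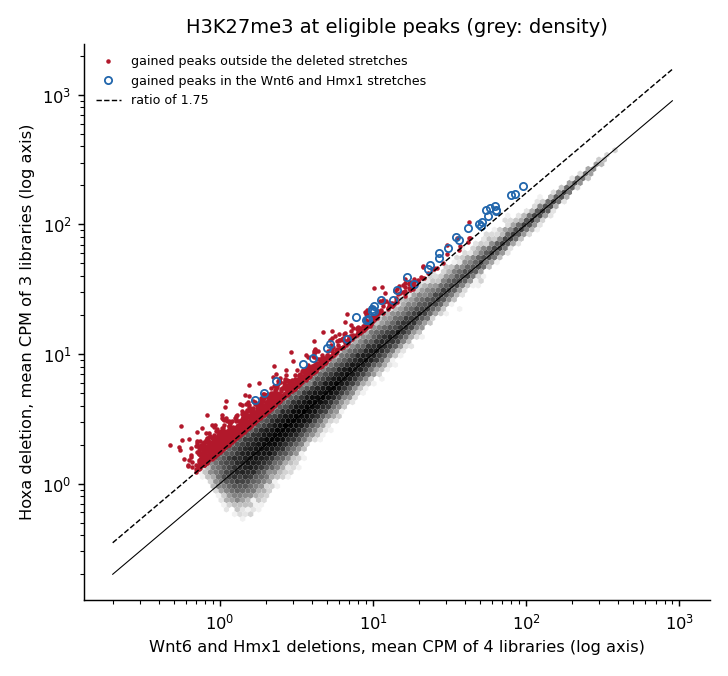
H3K27me3 at eligible peaks, with mean CPM over the 4 libraries of the Wnt6 and Hmx1 deletions on the horizontal axis and mean CPM over the 3 Hoxa deletion libraries on the vertical axis, both logarithmic. Grey shading is the density of peaks that were not gained, red points are the 1277 gained peaks outside the deleted stretches, blue circles are the 41 inside them, the solid line marks equal levels and the dashed line the threshold of the rule. Most red points sit at low levels, and the strongest gained peaks are mainly blue circles.

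Gained peaks were narrow as a whole. Their median width was 411 bp (quartiles 308 and 619 bp), against 488 bp (339 and 773 bp) for eligible peaks. Within deciles of equal level this order was turned, and gained peaks were the wider ones in the first 9 deciles. In the lowest decile the median was 283 bp for gained and 275 bp for eligible peaks, in the ninth decile 1205 and 887 bp, and in the highest decile, with 17 gained peaks, 1543 and 1612 bp. The narrower width of gained peaks overall thus went together with their lower level.

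**Figure D2:**
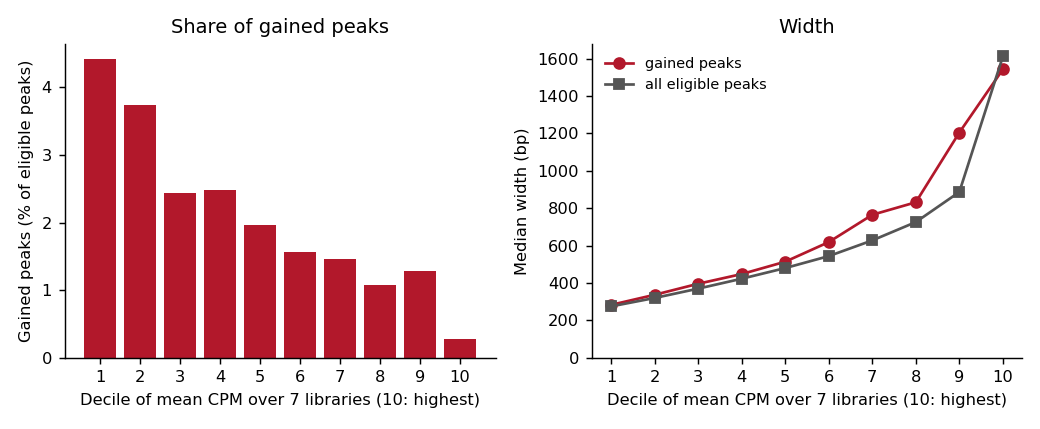
Eligible peaks were ordered by mean CPM over the 7 libraries and divided into 10 equal parts (deciles), shown on both horizontal axes from the lowest (1) to the highest (10). Bars give the percentage of eligible peaks that were gained, which fell from 4.42% to 0.275%; lines give the median width in bp of gained peaks (red circles) and of all eligible peaks (grey squares).

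By chromosome, the share of gained peaks ran from 1.18% of eligible peaks on chromosome 2 to 2.83% on chromosome 19. When gained peaks less than 50 kb apart were linked, 521 of 1277 (40.8%) fell into 179 groups of at least 2, and 756 stood alone. There were 38 runs of at least 4 gained peaks, which held 210 of them, and in 13 of these runs every eligible peak was gained. With linking distances of 25 and 100 kb there were 26 and 50 such runs. Non-gained peaks within 10 kb of a gained peak numbered 1351 and had a median ratio of 1.30, and 87.2% of them were above 1, against a median of 1.01 and 53.3% above 1 for non-gained peaks elsewhere. The signal next to gained peaks was therefore also higher in the Hoxa deletion, though under the threshold. Linking distance and runs were chosen after the values were seen.

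The run with the most gained peaks lay over Bahcc1, whose protein has a domain that binds H3K27me3, at chr11:120216662-120311435 (94.8 kb), where 19 of 20 eligible peaks were gained. Summed over these 20 peaks, the level was 331, 352 and 354 CPM in Hoxa deletion replicates 1 to 3, 174 and 181 CPM in the Wnt6 deletion, and 151 and 149 CPM in the Hmx1 deletion. The libraries formed 3 separate levels, and the place of the Hoxa deletion above the others follows largely from the choice of the peaks. The ratio was 2.11 for the sum and ranged from 1.69 to 3.52 among peaks. All 11 eligible peaks that overlapped Bahcc1 itself were gained, and the strongest, chr11:120236430-120237973, had 46.7 ± 1.07 CPM with Hoxa deleted (SD, n = 3), 21.0 ± 2.79 CPM with Wnt6 deleted (SD, n = 2) and 21.6 ± 0.493 CPM with Hmx1 deleted (SD, n = 2). Within 200 kb of the centre of the run, 16 eligible peaks outside it had a median ratio of 1.20, and 0 of them were gained. Since a run ends where no gained peak follows within 50 kb, the absence of gained peaks next to it is set by how it was drawn, and a few peaks to one side came close to the threshold.

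Further along chromosome 11, Notum carried the strongest gained peak outside the deleted stretches. NOTUM is a secreted enzyme that inactivates Wnt ligands by removing their lipid. At chr11:120658811-120661396 (2585 bp), the level was 105, 111 and 99.8 CPM in Hoxa deletion replicates 1 to 3, 44.0 and 42.3 CPM in the Wnt6 deletion, and 40.2 and 43.3 CPM in the Hmx1 deletion. The 4 comparison libraries lay close together and, largely by the choice of the peak, far below the Hoxa deletion, at a ratio of 2.48. A small peak in the same gene, chr11:120654202-120654421, had one of the largest ratios, 4.13, at only 2.89, 2.58 and 4.74 CPM in the Hoxa deletion replicates. The run around Notum, chr11:120624512-120661396, held 4 gained peaks among 6 and also covered Sirt7 and Myadml2.

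The run at Msi1, which encodes an RNA-binding protein of neural progenitors, held 12 gained peaks among 15 (chr5:115362875-115482863). Its summed level was 235, 237 and 220 CPM in the Hoxa deletion, 159 and 154 CPM in the Wnt6 deletion, and 117 and 127 CPM in the Hmx1 deletion. The order was again Hoxa, Wnt6, Hmx1, with no overlap, but the summed ratio of 1.66 was below the median of 2.18 over its gained and other peaks, since the strongest peak of the run was not gained. Over Pkd2l1, a channel gene, and Scd3 and Scd2, desaturases of fatty acids, all 10 eligible peaks were gained (chr19:44216972-44294235), with sums of 130, 137 and 154 CPM in the Hoxa deletion, 72.8 and 76.3 CPM in the Wnt6 deletion, and 63.5 and 56.8 CPM in the Hmx1 deletion. At Foxp4, a forkhead transcription factor gene, 9 of 11 were gained (chr17:47887732-47976639), and the sums averaged 128 ± 6.26 CPM with Hoxa deleted (SD, n = 3), 66.3 ± 0.747 CPM with Wnt6 deleted (SD, n = 2) and 60.0 ± 2.58 CPM with Hmx1 deleted (SD, n = 2). Outside the runs but within 200 kb of their centres, the median ratio was 1.39 near Msi1, 1.46 near Pkd2l1 and 1.31 near Foxp4. These medians lay above the value of 1.02 for all eligible peaks. They include gained peaks, which the rule chose for a high ratio: 3 of 12 near Msi1, 2 of 19 near Pkd2l1 and 1 of 45 near Foxp4.

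**Figure D3:**
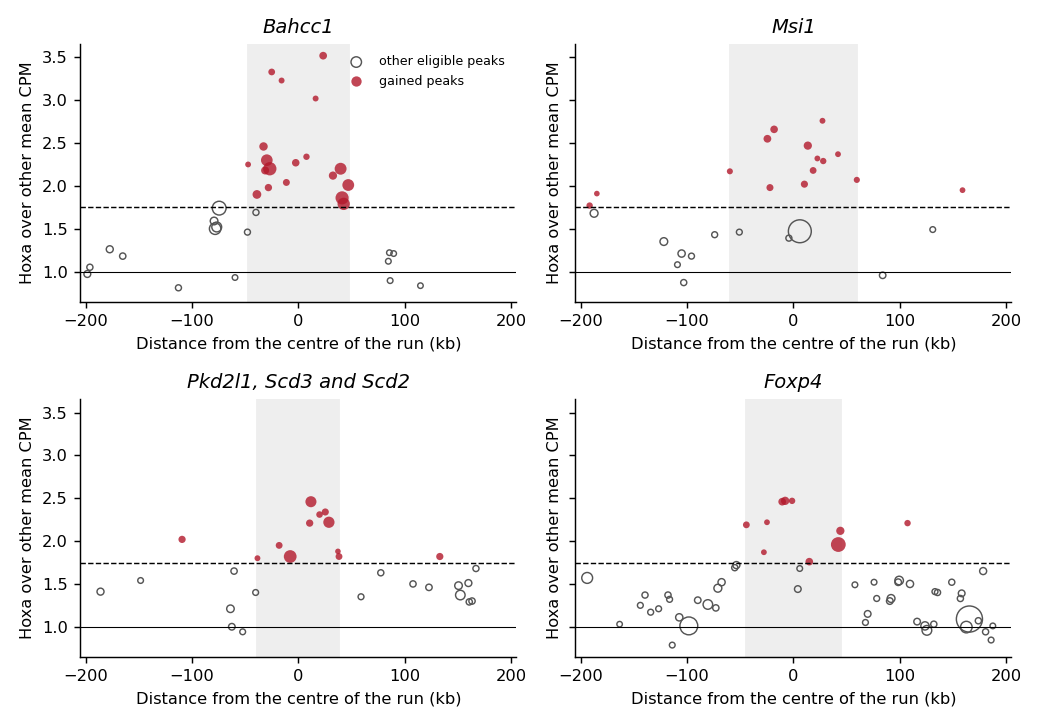
Ratio of mean CPM in the Hoxa deletion to that in the Wnt6 and Hmx1 deletions for every eligible peak within 200 kb of the centre of 4 of the 5 runs with the most gained peaks (the run around BC107364, which ties with Foxp4 at 9, is not drawn), against the distance from that centre in kb. Filled red points are gained peaks, open points are other eligible peaks, point area grows with the Hoxa deletion level, the shaded band is the run, the solid line marks a ratio of 1 and the dashed line the threshold. The bands were drawn from the gained peaks themselves, so their height above the dashed line is not a separate result; ratios within a band run from 1.69 to 3.52 at Bahcc1 and from 1.44 to 2.47 at Foxp4.

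In the other runs the levels were separated in the same manner. All 38 runs of at least 4 gained peaks had a higher sum in each of the 3 Hoxa deletion libraries than in any other library, as follows largely from the choice of their peaks. The highest summed ratio was 2.47, at Arhgef15, which encodes a guanine nucleotide exchange factor (5 of 5 peaks gained, chr11:68946966-68957295). Its sums were 142, 141 and 151 CPM in the Hoxa deletion, 62.5 and 70.9 CPM in the Wnt6 deletion, and 48.7 and 52.1 CPM in the Hmx1 deletion. Zbtb7b, a zinc finger factor of T cell fate, had 5 of 5 peaks gained (chr3:89378383-89396620, with a summed level of 139 ± 5.95 CPM with Hoxa deleted, SD, n = 3), and Nr5a2, a nuclear receptor active in early embryos, had 4 of 4 (chr1:136947467-136958457, summed ratio 2.22). Gli2 had 4 of 5 (summed ratio 2.02) and Sox13 had 4 of 6. At Tbx3, a T-box factor that supports self-renewal of mESCs, 7 of 16 peaks of the run were gained (chr5:119651574-119688448), and the sum was 287 ± 11.7 CPM with Hoxa deleted (SD, n = 3), 163 ± 8.48 CPM with Wnt6 deleted (SD, n = 2) and 180 ± 4.00 CPM with Hmx1 deleted (SD, n = 2). Here the Hmx1 deletion lay above the Wnt6 deletion, unlike at Bahcc1 and Msi1. In Sh3pxd2a, a scaffold of podosomes, 7 of 14 eligible peaks were gained (ratios 1.77 to 1.97). Kdm6b, which encodes a demethylase of H3K27me3, lay in a run with 4 of 15 peaks gained and a summed ratio of 1.55.

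The lowest summed ratio of a run was 1.20, around Mark4 (4 of 10 peaks gained), and a run in the Pcdhg cluster (chr18:37727377-37822956, 4 of 22 gained) followed with 1.27, so that a run of gained peaks did not always stand for a change of the whole domain. The run at chr3:96333089-96441021 around BC107364, with 9 of 9 gained and sums of 32.3 ± 1.65 CPM with Hoxa deleted (SD, n = 3), 15.6 ± 2.34 CPM with Wnt6 deleted (SD, n = 2) and 13.8 ± 0.906 CPM with Hmx1 deleted (SD, n = 2), was weak throughout. How reads that match several places were assigned is not given in the sources used here.

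Beside Notum, the strongest single peaks were at Gm31954, a gene model, at Fgfbp3, an FGF-binding protein, next to Sp7, a factor of bone formation, and at Arhgef15, Sh3pxd2a and Sox13. In Fgfbp3 (chr19:36918356-36919681) the level was 79.2, 75.9 and 79.7 CPM in the Hoxa deletion, 47.6 and 49.1 CPM in the Wnt6 deletion, and 39.7 and 34.8 CPM in the Hmx1 deletion. The Wnt6 deletion was here nearer to the Hoxa deletion than the Hmx1 deletion was. In Sox13 (chr1:133422447-133424628) it was 64.0, 67.2 and 60.3 CPM in the Hoxa deletion, 38.3 and 40.6 CPM in the Wnt6 deletion, and 31.4 and 35.3 CPM in the Hmx1 deletion. That the Hoxa deletion did not overlap the others at these peaks follows largely from the rule. A further peak, chr2:98666292-98667311, varied far more among replicates, with 87.0, 99.6 and 48.9 CPM in the Hoxa deletion and 48.2 and 35.7 CPM in the Wnt6 deletion, so that the lowest Hoxa deletion library almost met the highest other one. The nearest protein-coding gene to it, Lrrc4c, lay 1035 kb away, and repeat annotation was not used here.

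**Figure D4:**
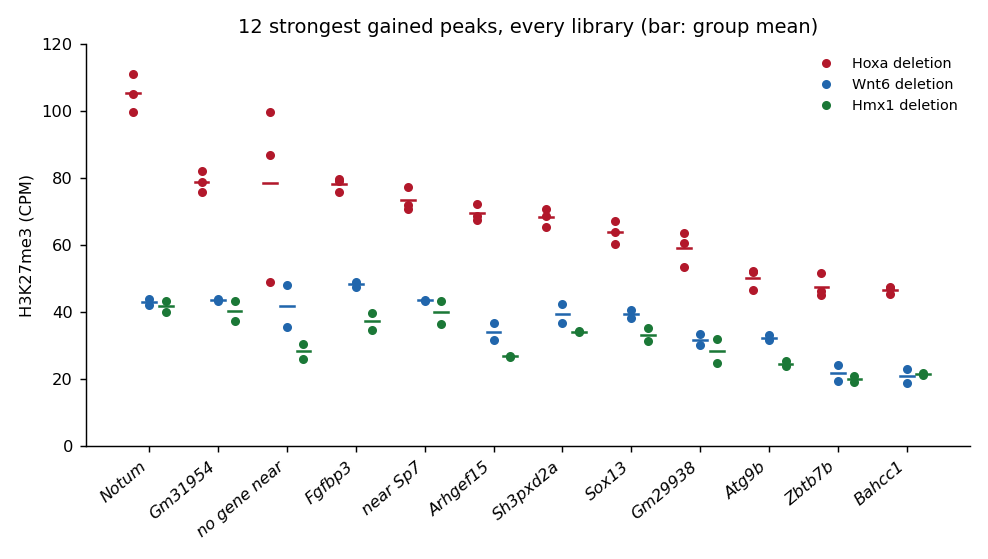
H3K27me3 in CPM in every library at the 12 gained peaks outside the deleted stretches with the highest mean in the Hoxa deletion, named by the gene they overlap or lie near. Points are libraries (3 Hoxa, 2 Wnt6, 2 Hmx1) and short bars are group means. The Hoxa deletion points lie above all others at each peak, as follows largely from the rule. Their spread is widest at the peak that has no gene near it. There, Hoxa deletion replicate 3 (48.9 CPM) almost meets Wnt6 deletion replicate 1 (48.2 CPM).

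The largest ratios belonged to weak peaks. The 10 highest among gained peaks without overlap ran from 3.54 at Smad7, an inhibitor of TGF-beta signalling, to 4.98 at Zfhx2, a homeobox and zinc finger factor, where the level was 2.77, 2.54 and 2.99 CPM in the Hoxa deletion, 0.401 and 0.738 CPM in the Wnt6 deletion, and 0 and 1.09 CPM in the Hmx1 deletion. The 0 was a count of 0 in the smallest library. Among these 10, only the peak in Dnah8, a dynein gene, averaged over 6 CPM in the Hoxa deletion, with 8.66, 7.54 and 8.12 CPM against 1.60 and 2.35 CPM in the Wnt6 deletion and 2.66 and 2.48 CPM in the Hmx1 deletion. The others were in or near Vmn2r87, Notum, Pura, Ramp2, Nfib, Cxxc5 and Ntn1. At the threshold, a peak just inside was in Aff1 (ratio 1.75027), and the first outside were in Zfp978 (1.74999) and Prkd2 (1.74984), so that nothing set them apart.

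Of the 1277 peaks, 884 (69.2%) overlapped a gene of the RefSeq table, against 65.2% of eligible peaks, and 816 genes were touched. Exons are not in that table, so exonic and intronic peaks are not told apart. In lists of genes the shares of gained peaks differed, and they are set beside the 2.07% of all eligible peaks as a description, with no test. They also need to be read with the level of each list, since strong peaks were rarely gained. The median level per eligible peak was 10.7 CPM for developmental transcription factor, 11.9 CPM for Wnt pathway and 14.9 CPM for fibroblast genes. It was 4.54 CPM for zinc finger, 5.75 CPM for axon guidance, 6.32 CPM for cadherin and 5.53 CPM for channel and receptor genes. Imprinted genes had 5.30 CPM, germline genes 4.99 CPM, and olfactory and vomeronasal receptor genes 3.07 CPM.

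In a list of developmental transcription factor genes, 32 of 770 eligible peaks were gained (4.16%), in 15 genes, and the median ratio of the list was 1.01. Its name patterns also took in Hesx1, a homeobox gene with 2 of these peaks, and the noncoding Sox2ot, Tbx3os1 and Tbx3os2. Foxp4, Gli2 and Nr5a2 held 5, 4 and 4 of these peaks and Tbx3 and Sox13 held 3 each. Hes1, an effector of Notch signalling, had 38.0, 34.5 and 36.1 CPM in the Hoxa deletion at its peak chr16:30066249-30067439, 18.2 and 19.8 CPM in the Wnt6 deletion, and 19.3 and 16.1 CPM in the Hmx1 deletion. Its 2 comparison deletions were intermixed. Single peaks were gained at Rarg, Runx1, Tcf15 and Wt1, and at Klf4, whose peak is also counted in the pluripotency list.

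A separate list of homeobox genes, which did not hold Zfhx2 or Hesx1, with a median level of 26.7 CPM per peak against 3.97 CPM over all eligible peaks, had 1 gained peak among 713 eligible ones (0.140%), a weak peak in Six4 with 0.578, 1.76 and 1.69 CPM in the Hoxa deletion, which overlapped the other deletions. The median ratio of the list was 1.01 against 1.02 over all eligible peaks. Of the peaks of this list, 464 lay in the highest 2 deciles of level, and 0 of these were gained, where 96 of 12351 eligible peaks in these deciles were.

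Zinc finger genes held 30 gained peaks of 630 (4.76%), in 26 genes, with a median ratio over the list of 1.08. The strongest were in Zbtb7b (chr3:89390746-89393250, 47.6 ± 3.55 CPM in the Hoxa deletion, SD, n = 3, ratio 2.26) and Zbtb4, a repressor that binds methylated DNA (chr11:69776008-69779132, 45.9 ± 1.99 CPM, SD, n = 3, ratio 1.751). Most other genes of this list had a single gained peak under 8 CPM. Some of these genes belong to families of similar sequence, where reads can be shared between copies.

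Of the Wnt pathway, 8 of 302 eligible peaks were gained (2.65%), in Notum, Axin2, Ror2 and Vangl2, none of them a ligand gene. Beside Notum, Axin2, a scaffold of the complex that degrades beta-catenin, had 24.6, 26.1 and 27.1 CPM in the Hoxa deletion at chr11:108941695-108943145, 8.61 and 11.6 CPM in the Wnt6 deletion, and 14.8 and 11.4 CPM in the Hmx1 deletion (ratio 2.23). The Hoxa deletion lay above the others, which overlapped each other. Ror2, a receptor of Wnt ligands, had 39.6, 33.6 and 32.0 CPM in the Hoxa deletion at chr13:53109703-53111553, an average of 17.2 ± 2.63 CPM with Wnt6 deleted (SD, n = 2), and 16.8 and 17.1 CPM in the Hmx1 deletion. The higher place of the Hoxa deletion at these peaks was part of their choice. Vangl2, of planar cell polarity, had 1 weak gained peak among its 4.

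Axon guidance genes held 17 gained peaks of 428 (3.97%), in 11 genes. Unc5b, a netrin receptor, had 3, the strongest at chr10:60811323-60812075 with 19.8 ± 1.35 CPM with Hoxa deleted (SD, n = 3), 10.3 ± 0.124 CPM with Wnt6 deleted (SD, n = 2) and 10.1 ± 2.82 CPM with Hmx1 deleted (SD, n = 2), and its ligand gene Ntn1 had 2. Cadherin genes had 9 of 382 (2.36%), 8 of them within the Pcdhg cluster, where gene spans overlap so that a peak cannot be given to a single protocadherin.

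Ion channel and neurotransmitter receptor genes had 10 of 1405 (0.712%), none in the highest 2 deciles of level, and 2 of these were in Trps1 and Trp53cor1, which are not channels but share the prefix of the TRP family. Imprinted genes had 2 of 278 (0.719%), in Ago2 and in Kcnq1 with its antisense transcript Kcnq1ot1. Germline genes had 2 of 61 (3.28%), in Ddx4 and Sycp1, olfactory and vomeronasal receptor genes 3 of 99 (3.03%), and fibroblast genes 0 of 20. Of the 5 pluripotency genes with eligible peaks only Klf4 had a gained one, 1 of 27 peaks (3.70%). At chr4:55529974-55531802 in Klf4 the level was 22.1, 24.1 and 22.2 CPM in the Hoxa deletion, 12.4 and 14.2 CPM in the Wnt6 deletion, and 9.47 and 13.9 CPM in the Hmx1 deletion. The Hoxa deletion did not overlap the others here, to which the rule contributed.

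The comparison of the Wnt6 with the Hmx1 deletion, which the rule did not use directly, asks whether both had the same level at the gained peaks. Of 74441 peaks tested by the quasi-likelihood method of edgeR, 66 (0.0887%) had an adjusted p under 0.05 together with a log2 fold change beyond 1 in either direction, and are called here. Of the gained peaks, 41 were called, and all 41 were those in the deleted stretches. Those stretches were defined by their low level in the Wnt6 or the Hmx1 deletion. The 41 calls were thus largely set in advance and are not a separate result. At the Cdk5r2 peak chr1:74854341-74857680, a neuronal activator of CDK5 within the Wnt6 stretch, the log2 fold change of Wnt6 over Hmx1 was -8.23 ± 0.174 (SE; adjusted p = 9.61e-44 in edgeR). Outside the stretches, 0 of 1277 gained peaks were called by edgeR, with a smallest adjusted p of 0.136, and 0 by DESeq2, which gave no adjusted p for 1000 of them. At an unadjusted p under 0.05, edgeR found 124 of the 1277 (9.71%), 111 higher in the Wnt6 and 13 higher in the Hmx1 deletion. Over all tested peaks the edgeR share was 5.66%, with 2421 higher in the Wnt6 and 1791 in the Hmx1 deletion. DESeq2 found 65 of the 1277, fewer than edgeR, and its share over all peaks was not computed. Nothing is therefore read from the edgeR excess.

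The Hmx1 deletion tended to lie lower. The median log2 fold change of Wnt6 over Hmx1 by edgeR was 0.18 over the 1277 peaks, with a middle 90% from -0.45 to 0.84 and a median standard error of 0.38, and 67.3% were higher in the Wnt6 deletion. Over eligible peaks the median was 0.01 and the share 51.4%. As a log2 ratio of mean CPM scaled by TMM factors, the median over gained peaks was 0.21; it was 0.08 without Wnt6 deletion replicate 2 and 0.06 without Hmx1 deletion replicate 1, and 0.38 without Hmx1 deletion replicate 2, so that its size rested on single libraries. The rule averages these 4 libraries, and it therefore favours peaks at which any one of them is low: Hmx1 deletion replicate 1, the smallest library, was the lowest of the 4 at 651 of the 1277 peaks, Wnt6 deletion replicate 1 at 376, Hmx1 deletion replicate 2 at 206 and Wnt6 deletion replicate 2, the largest library, at 44. The part of depth in this order was not tested.

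Set against each comparison deletion alone, 597 of the 1277 peaks were at least 75% higher in the Hoxa deletion than in both, 154 than in the Wnt6 deletion alone and 526 than in the Hmx1 deletion alone. The median ratio was 1.82 over the Wnt6 and 2.16 over the Hmx1 deletion, against 1.02 and 1.04 over eligible peaks. The lowest ratios were 1.18 and 1.25, so that every one of these peaks had a higher mean in the Hoxa deletion than in each other deletion. As the rule chose them by their ratio to the mean of these same libraries, this follows largely from the choice and is not a separate result. When the same ratio was applied to each deletion in turn over the eligible peaks outside the stretches, 366 peaks were higher in the Wnt6 deletion and 373 in the Hmx1 deletion, while 691 were lower in the Hoxa, 543 in the Wnt6 and 2059 in the Hmx1 deletion. Gained peaks of the Hoxa deletion were thus more numerous than those of the others, and peaks low in the Hmx1 deletion, whose replicate 1 is the smallest library, were more numerous still. These counts rest on group means of unequal size and depth, and were not tested.

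**Figure D5:**
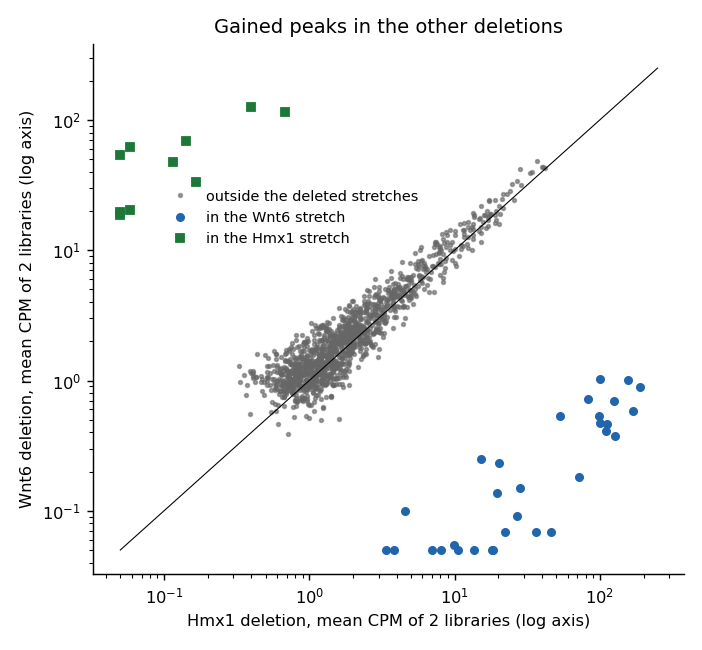
Mean CPM of the 1318 gained peaks in the Hmx1 deletion (horizontal axis) and the Wnt6 deletion (vertical axis), both logarithmic, with values under 0.05 CPM drawn at 0.05 and the line marking equal levels. Grey points, outside the deleted stretches, follow the line and spread widely at low levels, with more of them above it than below; blue circles are the 31 peaks in the Wnt6 stretch and green squares the 10 in the Hmx1 stretch.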

How the data were processed

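H3K27me3 Cut&Tag libraries of 3 deletion lines were analysed (3, 2 and 2 libraries); no IgG library entered the analysis, and no background was subtracted. The authors deposited raw counts over a shared list of peaks in a single table with 7 columns, which were matched to samples by title. The submitters' processing notes name mm10 and Trimmomatic, Bowtie2, SAMtools, Picard, MACS2 and deepTools. How the peak list was made, whether duplicates were removed, and whether reads or fragments were counted are not given in the sources used here. A peak list called on some libraries favours those libraries.

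CPM were computed from the counts and column totals. The deleted stretch of a deletion was the longest run of peaks under 10% of the level in the others. Wnt6 and Hmx1 deletions were compared in edgeR 4.0.16 (filterByExpr, TMM factors, glmQLFit and glmQLFTest on all 7 libraries with a term per deletion, Benjamini-Hochberg over all tested peaks), with DESeq2 1.42.0 as an alternative, in R 4.3.3 with limma 3.58.1. Other work used Python 3.11.15 with pandas 2.3.3 and matplotlib 3.10.9. The procedure was tested on simulated counts. Alternatives were other scaling, filters, thresholds, single libraries left out, downsampled counts and a replicate block.

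Peak positions are as deposited, with an unstated start convention. Genes were named where their span in a RefSeq table of GRCm38.p6 overlaps the peak, otherwise as the nearest. The members and gene lists were chosen with earlier results of these data known. Named peaks were the 10 with the largest ratio without overlap, the 5 strongest, the genes with the most gained peaks (up to 8), up to 10 called peaks, those at the threshold, and up to 3 per list; the 12 strongest outside the stretches, the runs and the shown promoters were added after seeing the data. Library totals ranged from 6016500 to 36563541 counts, and PCR reads are not independent molecules. The labels name no separate cultures, so p-values measure the spread between libraries, which may be technical.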

Additional observations from a re-analysis of the deposited data

How the results depend on the processing

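The number of gained peaks was 1318, and it was 591 with a mean raw count of at least 50, 3732 with a ratio of at least 1.5 and 528 with a ratio of at least 2. Leaving out single libraries gave 1220 to 1963 gained peaks; the most came without Wnt6 deletion replicate 2, and the share of the 1318 found again was lowest (67.8%) without Hmx1 deletion replicate 1. Outside the stretches, the 1277 became 1946 without Wnt6 deletion replicate 2. TMM and RLE scaling kept 1267 and 1295 of the 1318. With column totals that leave out chromosomes 6 and 8, 1095 peaks were gained and the median level in the Hoxa deletion was 3.76 CPM in place of 3.36 CPM. The median width of 411 bp was 387 bp with a mean count of at least 10, 666 bp with at least 50, 432 bp with a ratio of at least 1.5, 413 bp with at least 2 and 409 bp with TMM scaling. Between the Wnt6 and Hmx1 deletions, 41 gained peaks were called in every alternative but DESeq2 (38), and 0 outside the stretches in all. The calls inside the stretches were largely set in advance by how the stretches were defined. Leaving out single libraries kept 41 and 0, and gave a median log2 ratio between 0.06 and 0.38. Same-numbered libraries did not clearly deviate together (Pearson's r between -0.0415 and 0.08302 across peaks, which are not independent). For differently numbered libraries r lay between -0.08302 and 0.1136. In a group of 2 libraries the deviations mirror each other, so these values cannot decide whether the numbers pair the libraries. Replicate 1 was the smallest and replicate 2 the largest library of each deletion. With a replicate block, 41 gained peaks were called and 0 outside the stretches. Over all tested peaks, 143 then had an adjusted p under 0.05 in edgeR, against 98 without the block. Over the 61 named peaks, the lowest ratio under any alternative was 1.37. With a median count of 8 in the smallest library, weak gained peaks are limited by depth.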
